A study of Mus with 4 samples.

Results

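Podocytes and tubule cells are the mature descendants of the nephron progenitor, and 29 genes that they are known for were examined in sorted progenitors with and without the prorenin receptor (PRR). The genes were chosen by name: 11 podocyte genes, 9 proximal tubule genes, 7 genes of the loop of Henle and distal tubule, and 2 general epithelial genes. Of these, 25 matched a probe of the array through a RefSeq accession, on 36 of 41174 probes, and stand among 16358 gene symbols that matched in all. *Synpo*, *Magi2*, *Lrp2* and *Cubn* were not matched to a probe and were not analysed here. Each gene was described by its brightest probe, and its other probes were given where they differed in direction or call.

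The cells were GFP+ cap mesenchyme cells isolated by FACS from E15.5 mouse kidneys. *Mut* cells carried *Six2* Cre+ and *PRR* flox/flox, and *WT* cells carried *Six2* Cre+ and *PRR* +/+, so the *Six2GFPCre TGC* transgene, which drives Cre and GFP in nephron progenitors, was present in both groups. Kidneys were pooled, with 3 pools per genotype. Arrays 1, 2 and 3 each held a *Mut* pool in the Cy3 channel and the *WT* pool of the same number in Cy5, whereas array 4 compared *WT* pool 1 (Cy5) with *WT* pool 2 (Cy3). The dyes were not swapped on arrays 1 to 3, so the genotype and the dye cannot be told apart there. Nothing says that pools came from separate litters, so P-values speak for these 3 arrays alone. The limma SE and P-values rest on each probe's spread between the arrays, drawn towards the spread of all probes. The 3 ratios of *Ptpro* thus had an SD of 0.0099 and an SE of 0.051, and those of *Umod* an SD of 0.226 and an SE of 0.074.

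Nephron progenitors of the cap mesenchyme renew themselves or condense into renal vesicles, which pass through comma- and S-shaped bodies to become the glomerulus and the tubule. Podocytes come from the proximal end of the S-shaped body, wrap the glomerular capillaries with foot processes and join them by the slit diaphragm. The proximal tubule reabsorbs most of the filtered solutes, the thick ascending limb of the loop of Henle reabsorbs salt without water, and the distal tubule adjusts what is left. The genes examined encode the slit diaphragm and its cytoskeleton, the transporters of each tubule segment, and the transcription factors that specify them.

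Several facts of the arrays touch every value below. The gene of PRR itself, *Atp6ap2*, is held by 1 probe, with normalized signals (log2) of 8.07, 8.27 and 8.20 in *WT* and 8.00, 8.08 and 7.95 in *Mut*, and the groups overlapped. Within arrays *Mut* was lower than its *WT* partner each time, by a log2 ratio of -0.08, -0.19 and -0.25 (mean -0.17, SE 0.055, limma, adjusted P = 0.0351). The *WT* pools of array 4 read 8.08 and 7.89, a ratio of -0.19 in the same direction of dye, so the probe did not tell a *Mut* from a *WT* pool, and whether it lies in the deleted part is not given in the sources used here. *WT* pool 1 was read on arrays 1 and 4 in the same dye, and its reading on array 4 lay nearer the *Mut* mean than the *WT* mean for 6484 of 16355 genes, 10 of the 25 members among them. Whether array 4 held the same RNA as arrays 1 and 2 rests on its label alone, and every value of that array, and the dye term drawn from it, depends on that label. The correlation of the ratios over all probes was 0.724 to 0.849 among arrays 1 to 3, and 0.398 to 0.450 between these and array 4. The Cy5 channel found 54.1 to 58.3% of probes well above background on the 4 arrays and the Cy3 channel 45.1 to 51.1%, so the channel that held *Mut* was also the dimmer one.

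Which of the segment genes were detected was asked first. A gene was taken as detected when the extraction program marked its probe as well above background on all 3 arrays. In *WT* 11 of the 25 genes (44%) were detected, and in *Mut* 6 (24%), against 64.7% and 57.3% of all genes. With the milder flag of the program for a positive and significant signal, the counts were 20 and 18. The 6 genes detected in both were *Ptpro*, *Cd2ap*, *Vegfa*, *Actn4*, *Foxc2* and *Epcam*, of which 5 belong to the podocyte list. No proximal tubule, loop or distal tubule gene was detected in *Mut*, against 1 of 7 and 3 of 7 in *WT*.

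A further 10 genes stayed below that mark in each channel of arrays 1 to 3. They were *Nphs1*, *Podxl*, *Slc5a2*, *Slc3a1*, *Slc22a6*, *Hnf4a*, *Slc12a3*, *Irx1*, *Irx2* and *Irx3*. Their normalized signals (log2) ran from 6.04 to 6.40 in *WT* and from 5.86 to 6.58 in *Mut*, and their raw median signals from 59 to 78.5 in *WT* and from 47 to 74 in *Mut*. At such signals a change of the transcript was not measurable with these probes.

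*Aqp1*, *Umod*, *Slc12a1* and *Kcnj1* were well above background in *WT* on 3 of 3 arrays and in *Mut* on none. Across all genes this held for 614 of 16355, or 3.75%, and the opposite pattern for 5 genes. Array 4, where both channels held *WT* cells, did not repeat it for each of the 4 genes. There *Slc12a1* and *Kcnj1* were not well above background in either *WT* pool, *Aqp1* was so in *WT* pool 1 and not in *WT* pool 2, and *Umod* was so in both. Of the 614 genes, 56 (9.12%) were likewise not well above background in *WT* pool 1 on array 4. On that array 12 of the 25 genes were well above background in Cy5 and 10 in Cy3, against 11 to 14 in Cy5 and 6 to 8 in Cy3 on arrays 1 to 3.

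**Figure D1:**
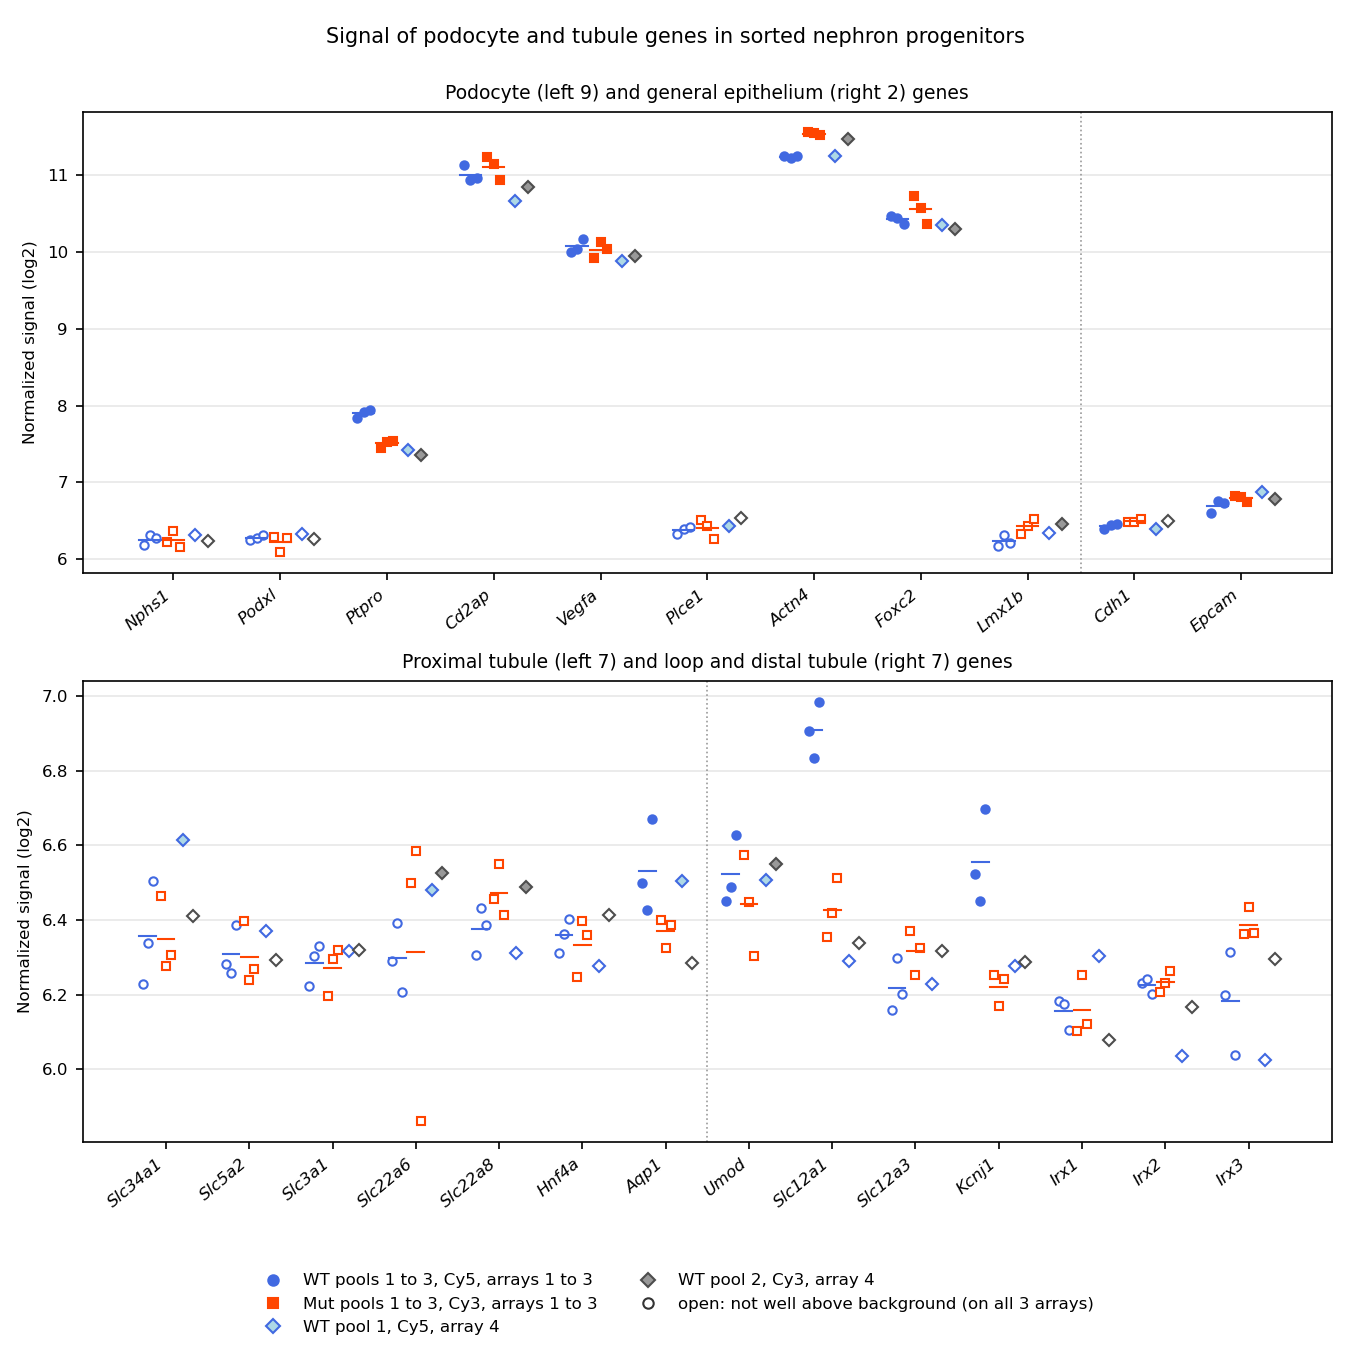
Normalized signal (log2) of the 25 genes by channel: blue circles are WT pools 1 to 3 and orange squares Mut pools 1 to 3 on arrays 1 to 3, short lines are means of 3, and diamonds are WT pool 1 (Cy5) and WT pool 2 (Cy3) on array 4. Open symbols are not well above background (for arrays 1 to 3, not on all 3); levels may be compared within a gene but not between genes. Filled Mut symbols are seen for 6 genes, and the array 4 diamonds of Slc12a1 and Kcnj1 lie nearer the Mut points than the WT points.

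Whether the segment genes differed between *Mut* and *WT* was asked next. At an adjusted P under 0.05 and a change over 1.5-fold, limma called 0 of the 25 genes higher and 0 lower in *Mut*, against 0.428% of all genes higher and 1.58% lower. At an unadjusted P under 0.05 the counts were 0 with the fold minimum and 8 without it, against 2.02% and 44.0% of all genes. By the methods' t-test the counts were 0 after adjustment and, unadjusted, 4 without the fold minimum and 0 with it, against 28.0% and 1.73% of all genes. Without a fold minimum the adjusted P was passed by 6 genes, against 33.0% of all genes: *Actn4*, *Lmx1b* and *Irx3* were higher and *Ptpro*, *Slc12a1* and *Kcnj1* lower.

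With the offset of 50 added to the signals, which draws the ratios of dim genes towards 0, all single-array ratios of the 25 genes stayed within 1.5-fold, from -0.55 to 0.33 on the log2 scale, and 12 genes had the same sign on all 3 arrays. With an offset of 0 the mean log2 *Mut*/*WT* was -1.14 for *Slc12a1* (limma, adjusted P = 0.111) and -0.93 for *Kcnj1* (adjusted P = 0.123). The signals of the 3 *Mut* and 3 *WT* pools did not overlap for 8 genes, against 41.0% of all genes: *WT* was above *Mut* for *Ptpro*, *Aqp1*, *Slc12a1* and *Kcnj1*, and *Mut* above *WT* for *Actn4*, *Lmx1b*, *Irx3* and *Cdh1*. The median log2 *Mut*/*WT* was 0.00 over the 25 genes and -0.00 over all genes. On the *WT* against *WT* array 0 of the 25 genes and 0.0978% of all genes were past 1.5-fold.

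**Figure D2:**
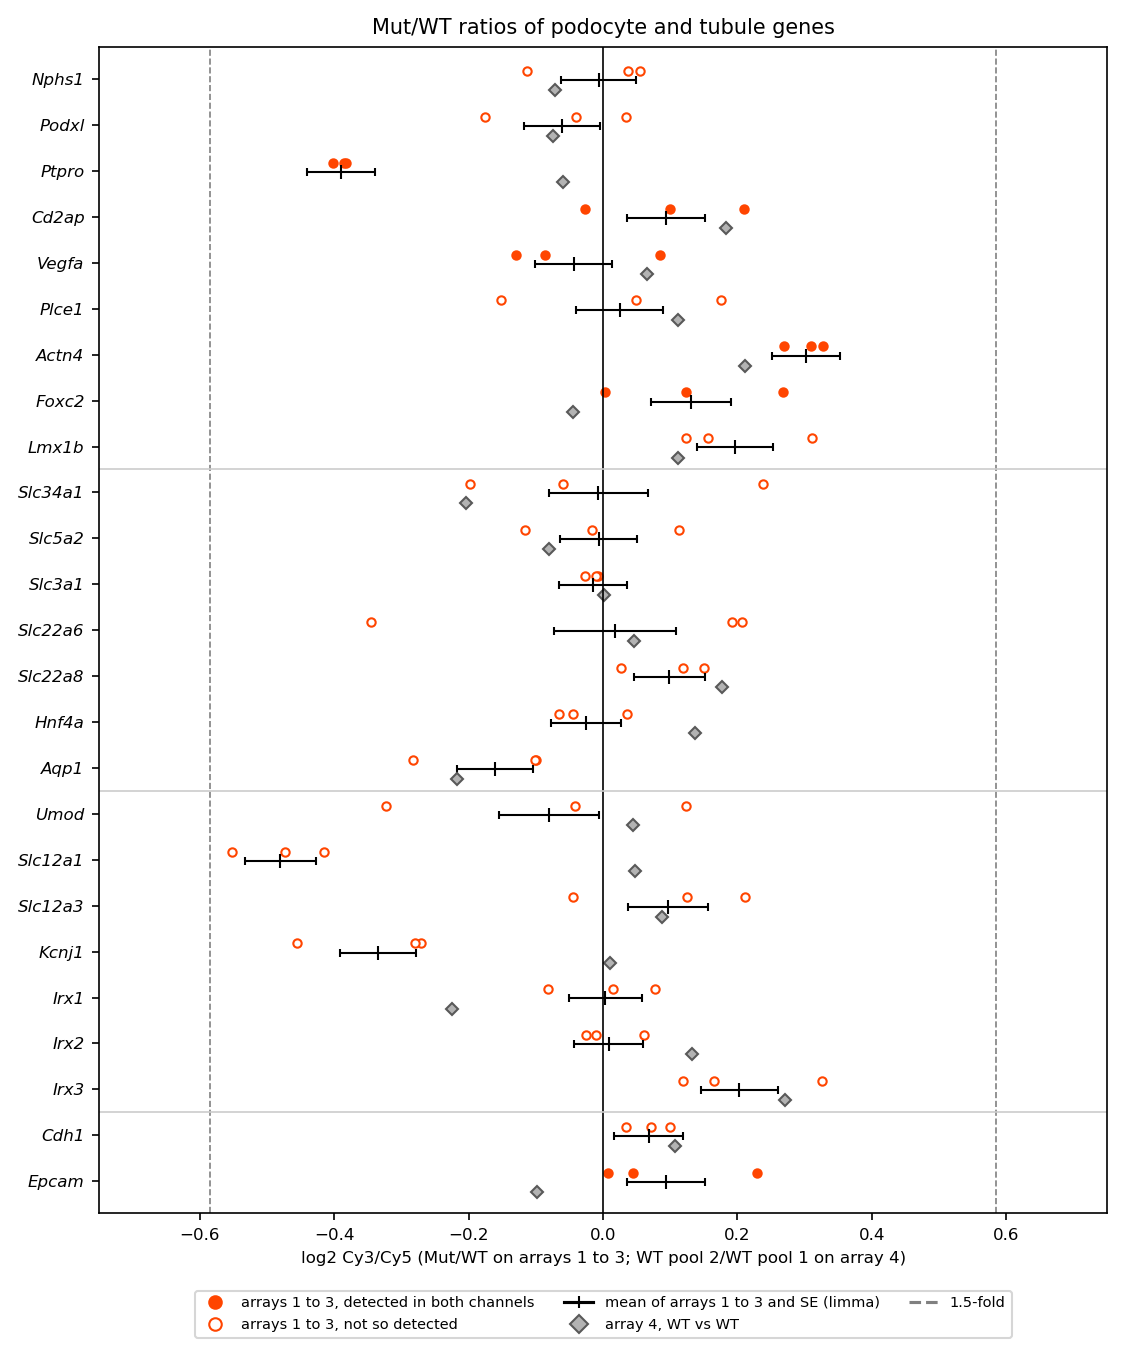
log2 Cy3/Cy5 of the 25 genes, in the order podocyte, proximal tubule, loop and distal tubule, and epithelium: circles are arrays 1 to 3 (filled where the gene was detected in both channels), black marks their mean with the standard error of limma, and grey diamonds WT pool 2 over WT pool 1 on array 4. All circles lie between -0.55 and 0.33, inside the dashed lines at 1.5-fold, and the grey diamonds of Actn4, Aqp1 and Irx3 lie on the same side of 0 as their means while those of Slc12a1 and Kcnj1 lie near 0.

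Among the podocyte genes, *Ptpro* was lower in *Mut* and *Actn4* higher, each by less than 1.5-fold, and *Nphs1* and *Podxl*, which encode the slit diaphragm protein nephrin and the podocyte sialomucin podocalyxin, were not above background. *Ptpro* encodes a receptor tyrosine phosphatase of the podocyte surface. Its normalized signal (log2) was 7.84, 7.91 and 7.95 in *WT* pools 1 to 3 and 7.45, 7.53 and 7.54 in the *Mut* pools. The groups did not overlap, and the signal fell by 0.39 on the log2 scale in *Mut* (SE 0.051, n = 3, adjusted P = 0.000182, limma), a 1.31-fold change. On array 4, however, *WT* pools 1 and 2 read 7.42 and 7.36, below all of the *Mut* pools. A second *Ptpro* probe was not well above background in any channel and gave a log2 ratio of 0.14 (limma, adjusted P = 0.0585). In bulk cells such as these, fewer cells of a type and less RNA per cell cannot be told apart.

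*Actn4*, which encodes an actin cross-linking alpha-actinin found in podocytes and in many other cells, was detected in all channels. It read 11.25, 11.22 and 11.25 in *WT* and 11.56, 11.54 and 11.52 in *Mut*. All 3 *Mut* pools were above all 3 *WT* pools, by 0.30 on the log2 scale (SE 0.051, n = 3, adjusted P = 0.00103, limma). On array 4 *WT* pool 2, in the Cy3 channel that held *Mut* on the other arrays, read 11.47 against 11.26 in *WT* pool 1, a ratio of 0.21 between *WT* pools. With a dye term taken from array 4 the estimate was 0.09 (adjusted P = 0.744), and median centring in place of loess gave -0.33 (adjusted P = 0.413), where the median of all genes detected in both channels was -0.50.

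*Lmx1b*, a LIM homeodomain transcription factor needed for podocyte differentiation, lay at the edge of detection. It read 6.17, 6.31 and 6.21 in *WT*, where no array marked it as well above background, and 6.33, 6.43 and 6.52 in *Mut*, above background on 1 of 3. The measured means differed by 0.20 on the log2 scale (SE 0.056, n = 3, adjusted P = 0.0209, limma), and no fold is drawn from signals so near background. On array 4 it was above background in *WT* pool 2 in Cy3 (6.45) and not in *WT* pool 1 in Cy5 (6.34).

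The forkhead factor gene *Foxc2*, which is expressed in the podocyte precursors of the S-shaped body, was detected throughout. Its signals were 10.46, 10.44 and 10.37 in *WT* and 10.73, 10.57 and 10.37 in *Mut*, and the groups overlapped. The log2 *Mut*/*WT* was 0.13 (SE 0.060, n = 3, adjusted P = 0.123, limma), with single ratios of 0.27, 0.12 and 0.00, and 0.20 without array 3 (adjusted P = 0.0237). *Plce1*, which encodes phospholipase C epsilon, an enzyme needed for glomerular development, was above background in *WT* on 2 arrays and in *Mut* on none, and its ratios of 0.18, 0.05 and -0.15 had both signs.

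*Vegfa* and *Cd2ap* were each held by several probes that were detected in both channels and did not give the same answer. *Vegfa* encodes the growth factor by which podocytes and tubule cells maintain nearby capillaries. At its brightest probe, A_52_P638895, the signals were 10.00, 10.04 and 10.17 in *WT* and 9.92, 10.13 and 10.04 in *Mut*, and the ratio was -0.04 on the log2 scale (limma, adjusted P = 0.609). At A_52_P249424 they were 8.71, 8.59 and 8.65 in *WT* and 7.70, 7.84 and 8.00 in *Mut*, so that the groups stood well apart. This probe fell by 0.80 on the log2 scale (SE 0.067, n = 3, adjusted P = 1.11e-05, limma), with single ratios of -1.01, -0.75 and -0.65. It was the 1 probe of the 36 that was called lower, against 1.46% of all probes, and no probe of the 36 was called higher.

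The third *Vegfa* probe, A_51_P482552, was printed in 10 spots and lay between the others, with ratios of -0.37, -0.25 and -0.19 and a mean of -0.27 (SE 0.055, n = 3, adjusted P = 0.00352, limma). Its spots on 1 array varied by an SD of 0.055 to 0.105, whereas the other *Vegfa* probes were printed once and have no such measure. The mean over all probes of *Vegfa* was -0.37 (limma, adjusted P = 0.00139). That passed the adjusted P, which the brightest probe missed, but was under 1.5-fold, so the gene was not called. On array 4 the 3 probes read 0.07, -0.38 and -0.04 in the order above. The A_52_P249424 probe thus also differed between the *WT* pools in the same direction of Cy3 over Cy5, and with the dye term its estimate was -0.42 (adjusted P = 0.177). Where the 3 probes lie on the transcript is not given in the sources used here, and whether they report different *Vegfa* transcripts was not tested.

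*Cd2ap* encodes an adaptor that links the slit diaphragm to actin. Its brightest probe, A_52_P175066, read 11.13, 10.93 and 10.96 in *WT* and 11.23, 11.14 and 10.93 in *Mut*, with overlapping groups and a log2 ratio of 0.09 (limma, adjusted P = 0.248). Its other probe, A_51_P229076, read 8.09, 8.40 and 8.50 in *WT* and 7.79, 7.94 and 8.07 in *Mut*. There *Mut* was lower than its *WT* partner on all 3 arrays, by 0.30, 0.46 and 0.43, and the mean fell by 0.40 (SE 0.055, n = 3, adjusted P = 0.000277, limma), which is under 1.5-fold. Array 4 again gave the probes opposite signs, 0.18 and -0.21, and the mean of both probes was -0.15 (limma, adjusted P = 0.0372). The sign for *Cd2ap* therefore rests on the probe.

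**Figure D3:**
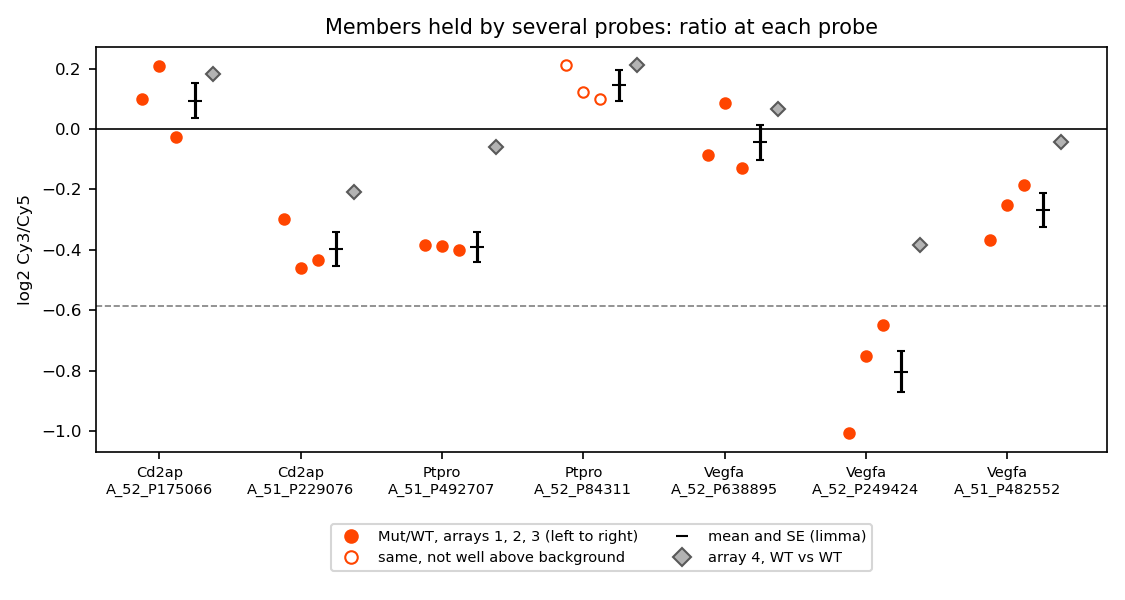
log2 Cy3/Cy5 at each probe of Cd2ap, Ptpro and Vegfa, the brightest probe of each gene first: orange circles are arrays 1, 2 and 3, black marks their mean with the standard error of limma, and grey diamonds the WT against WT array. The dashed line marks 1.5-fold lower, which only A_52_P249424 of Vegfa passes, with a mean of -0.80. The Cd2ap probes lie on opposite sides of 0 in their means (0.09 and -0.40).

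None of the 7 proximal tubule genes passed the adjusted P (limma). *Aqp1*, which encodes the water channel of the proximal tubule and thin descending limb, was the 1 gene of the 7 detected in *WT*. Its signals were 6.50, 6.43 and 6.67 in *WT* and 6.40, 6.33 and 6.39 in *Mut*, none of the latter well above background. The groups did not overlap, by a margin smaller than the spread within *WT*, and the log2 *Mut*/*WT* was -0.16 (SE 0.056, n = 3, adjusted P = 0.0510, limma). It passed with no background correction (adjusted P = 0.0135), with dim probes left out (0.0385), with the mean over all probes (0.0435) and without array 1 (0.0391), and with a dye term it turned to 0.056. Between the *WT* pools of array 4 the ratio was -0.22, larger than that between the genotypes.

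The other proximal genes were dim. *Slc34a1*, the sodium-phosphate cotransporter gene, was above background in *WT* on 2 arrays, and *Slc22a8*, which encodes an organic anion transporter, on 1. In *Mut* neither was above background on any array. The sodium-glucose transporter gene *Slc5a2*, the amino acid transporter gene *Slc3a1*, the organic anion transporter gene *Slc22a6*, and *Hnf4a*, which encodes the nuclear receptor that drives proximal tubule maturation, were never above background on arrays 1 to 3. The log2 *Mut*/*WT* of these 6 genes ran from -0.02 to 0.10, with adjusted P of 0.186 to 0.957 (limma), and the groups overlapped for each. A further *Hnf4a* probe, A_52_P69656, also not above background, gave 0.064 against -0.025 at the brightest one. *Slc22a6* was above background in both *WT* pools on array 4, at 6.48 and 6.52, and without array 3 its ratio was 0.20 (limma, adjusted P = 0.0178). *Slc3a1* passed with the deposited log ratios alone, at -0.77 (limma, adjusted P = 0.0490).

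In the loop of Henle list, *Slc12a1* and *Kcnj1* were lower in *Mut*. They encode the NKCC2 cotransporter and the ROMK channel, which work together in salt uptake by the thick ascending limb. *Slc12a1* read 6.91, 6.83 and 6.98 in *WT* and 6.36, 6.42 and 6.51 in *Mut*, from raw median signals of 118, 124 and 143 in *WT* and 56, 65 and 72 in *Mut*. The *WT* pools lay above all *Mut* pools, and the signal fell by 0.48 on the log2 scale in *Mut* (SE 0.053, n = 3, adjusted P = 6.64e-05, limma). No array marked the gene as well above background in *Mut*. With the lowest signals well above background set in place of dim *Mut* values, *WT* was 1.37-fold higher. That fold holds for these normalized values, is open to dye bias and is no strict bound. *Slc22a6* read 6.58 in *Mut* pool 2 without the mark, where the lowest marked Cy3 signal of array 2 was 6.46. The same rule put *Umod*, whose groups overlapped, 1.04-fold higher in *WT*. *Kcnj1* read 6.52, 6.45 and 6.70 in *WT* and 6.25, 6.17 and 6.24 in *Mut*, so that it fell by 0.34 in *Mut* (SE 0.056, n = 3, adjusted P = 0.000998, limma). By the same rule *WT* was 1.11-fold higher for *Kcnj1*.

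Both genes read differently in *WT* cells on array 4. *Slc12a1* was 6.29 in *WT* pool 1 and 6.34 in *WT* pool 2, and *Kcnj1* 6.28 and 6.29, with none well above background. For *Slc12a1* the second reading of *WT* pool 1 lay below the first by 0.62 on the log2 scale, the 1 gene of the 25 for which that gap was over 1.5-fold. The readings of *WT* pool 1 on array 4 minus array 1 ran from -0.62 to 0.39 over the 25 genes. By the labels, the same pool in the same dye thus gave a *WT* level of *Slc12a1* on array 1 and a level under every *Mut* pool on array 4. The ratio within array 4 was 0.05 for *Slc12a1* and 0.01 for *Kcnj1*.

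*Umod*, which encodes uromodulin, the main protein of the thick ascending limb, was detected in *WT* only. It read 6.45, 6.49 and 6.63 in *WT* and 6.58, 6.45 and 6.30 in *Mut*, so the groups overlapped, with a log2 *Mut*/*WT* of -0.08 (SE 0.074, n = 3, adjusted P = 0.453, limma), and it turned to 0.041 without array 3. *Slc12a3*, which encodes the thiazide-sensitive cotransporter of the distal convoluted tubule, was not above background in any of the 8 channels. Nor were *Irx1*, *Irx2* and *Irx3*, Iroquois homeobox genes of the intermediate part of the developing nephron. The log2 *Mut*/*WT* of *Irx2* was 0.0081 at its brightest probe and -0.032 and -0.026 at its other probes, none of them above background. *Irx3* read 6.20, 6.31 and 6.04 in *WT* and 6.36, 6.43 and 6.37 in *Mut*, and its ratio of 0.20 passed the adjusted P (0.0192, limma). No fold is drawn from it, since both channels lay at background, and the *WT* pools of array 4 gave 0.27 in the same direction of dye.

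The 2 general epithelial genes did not change past the threshold. *Epcam*, which encodes an adhesion molecule of epithelial cells, was detected in both groups, at 6.60, 6.76 and 6.73 in *WT* and 6.82, 6.81 and 6.74 in *Mut*, a ratio of 0.09 (SE 0.058, n = 3, adjusted P = 0.254, limma). *Cdh1* encodes E-cadherin, which appears as progenitors turn into epithelium. Its probe, printed in 10 spots, read 6.39, 6.45 and 6.45 in *WT* and 6.49, 6.48 and 6.53 in *Mut*, where it was well above background on 1 array. The groups did not overlap, and the ratio was 0.07 (SE 0.051, n = 3, adjusted P = 0.347, limma), against 0.11 between the *WT* pools of array 4 and a spot-to-spot SD of 0.050 to 0.113.

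Other genes of the same segments were examined as well. Of 103 further genes listed, 96 matched a probe. Of these, 50 (52.1%) were detected in *WT* and 38 (39.6%) in *Mut*, against 64.7% and 57.3% of all genes. Of the 96, 1 was called higher and 1 lower, against 0.428% and 1.58% of all genes. With no fold minimum 15 in each direction passed the adjusted P, against 14.4% of all genes higher and 18.6% lower. The gene called lower was *Cdkn1c*, which encodes a cell cycle inhibitor of differentiating podocytes. It read 13.35, 13.34 and 13.34 in *WT* and 12.60, 12.78 and 12.83 in *Mut*, with a log2 difference of -0.60 (SE 0.059, n = 3, adjusted P = 3.22e-05, limma), and 12.87 and 12.85 on array 4. The *WT* cells of array 4 thus lay close to the *Mut* cells of arrays 1 to 3.

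By list, the other podocyte genes were detected most often, 19 of 23 in *WT* (82.6%) and 18 in *Mut* (78.3%), above the shares of all genes. At the adjusted P alone 7 of them were higher and 6 lower, where 14.4% of all genes were higher and 18.6% lower. The other proximal genes were detected in 13 of 32 in *WT* and 8 in *Mut*, with 6 higher and 2 lower. The other loop and distal genes were detected in 9 of 23 and 6, with 1 higher and 4 lower, and the other epithelial genes in 9 of 18 and 6, with 1 higher and 3 lower.

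The cell type labelled was checked against its markers. All 10 nephron progenitor markers were detected in both groups, with a summed signal of 27992 to 29226 in *WT*, 25016 to 26336 in *Mut*, and 27757 and 25495 in *WT* pools 1 and 2 on array 4. Such sums weigh the brightest marker of a list most, here *Crym*, with log2 means of 13.97 in *WT* and 13.70 in *Mut*. None of the 10 was called, and at the adjusted P alone (limma), which 18.6% of all genes passed as lower and 14.4% as higher, 6 were lower in *Mut* and 2 higher, *Eya1* (0.31) and *Itga8* (0.27), named after their values were seen. All 10 renal vesicle markers were detected as well, with a summed signal of 2368 to 2497 in *WT*, 3296 to 3464 in *Mut* and 3528 and 3487 in the *WT* pools of array 4. *Lhx1* and *Ccnd1* were called higher in *Mut*, as were 0.428% of all genes. Ureteric bud markers were detected in 6 of 8 in *WT* and 4 in *Mut*, summed to 2435 to 2488 and 2292 to 2339, and to 2085 and 2258 on array 4, with *Ret* never above background. The summed signal of stromal markers was 5836 to 6104 in *WT* and 7114 to 8533 in *Mut* and 6254 and 7148 on array 4, with 7 of 8 detected in each and *Pdgfrb*, *Col1a1* and *Col3a1* called higher. At the adjusted P alone 8 of the 10 vesicle markers were higher and 0 lower, and 6 of the 8 stromal markers were higher in *Mut* and 1 lower, *Foxd1*, named after its values were seen, at -0.30 (limma, adjusted P = 0.00207). For several vesicle and stromal markers, *Lhx1*, *Ccnd1*, *Jag1*, *Fgf8*, *Hes5* and *Pdgfrb* among them, the higher signal in *Mut* is opposite to the direction given by the study, while for the globin gene *Hbb-y* it is not opposite. For *Lhx1*, *Jag1* and *Fgf8* the study also reports the lower level in *Mut* by qRT-PCR. The member *Vegfa* is listed by the study as upregulated, and here none of its probes had a higher mean in *Mut*. Directions here follow the dye labels.

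Erythroid markers also moved between the groups. They were detected in 2 of 7 in *WT* and 3 in *Mut*, summed to 1732 to 1906 in *WT*, 3527 to 3708 in *Mut* and 4067 and 3587 on array 4. *Hba-a1* was called higher in *Mut*, as were 0.428% of all genes. At the adjusted P alone 4 of the 7 were higher and 0 lower, against 14.4% and 18.6% of all genes. *Hbb-bh1* was never above background and *Hba-x* only in *WT* pool 1 on array 4. Endothelial markers were detected in 3 of 6 and 2, with summed signals of 721 to 740 in *WT* and 728 to 736 in *Mut*, 647 and 711 on array 4, and *Pecam1* and *Tek* not above background on arrays 1 to 3. Macrophage markers were detected in 3 of 4 in each, at 496 to 512 and 468 to 483, and at 477 and 450 on array 4. The part of these cell types in the values of the segment genes was not tested.

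How far the 6 genes past the adjusted P depend on the processing was asked last. With a dye term from array 4, *Slc12a1* alone of the 6 passed, with a log2 *Mut*/*WT* of -0.53 (adjusted P = 0.0412), while *Ptpro* was at -0.33 (0.159), *Kcnj1* at -0.35 (0.182), *Lmx1b* at 0.08 (0.790) and *Actn4* at 0.09 (0.744), and *Irx3* turned to -0.07. That term rests on 1 array. With median centring, under which no probe of the whole array was called, 0 of the 6 passed, with adjusted P of 0.101 for *Ptpro*, 0.114 for *Slc12a1* and 0.294 for *Kcnj1*. The log ratios that the authors deposited gave much larger ratios for the dim genes, -2.47 for *Slc12a1* (adjusted P = 0.0787), -2.36 for *Kcnj1* (0.0375), 1.46 for *Lmx1b* (0.0571) and 1.96 for *Irx3* (0.0301), against -0.56 for *Ptpro* (0.0391) and 0.29 for *Actn4* (0.0445), the latter 2 detected in both channels. The mean over both *Ptpro* probes fell by 0.12 (adjusted P = 0.0578). Leaving out an array put the adjusted P above 0.05 for *Lmx1b*, at 0.23 without array 2 (0.0523) and 0.14 without array 3 (0.102), and for *Irx3*, at 0.14 without array 3 (0.0960).

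**Figure D4:**
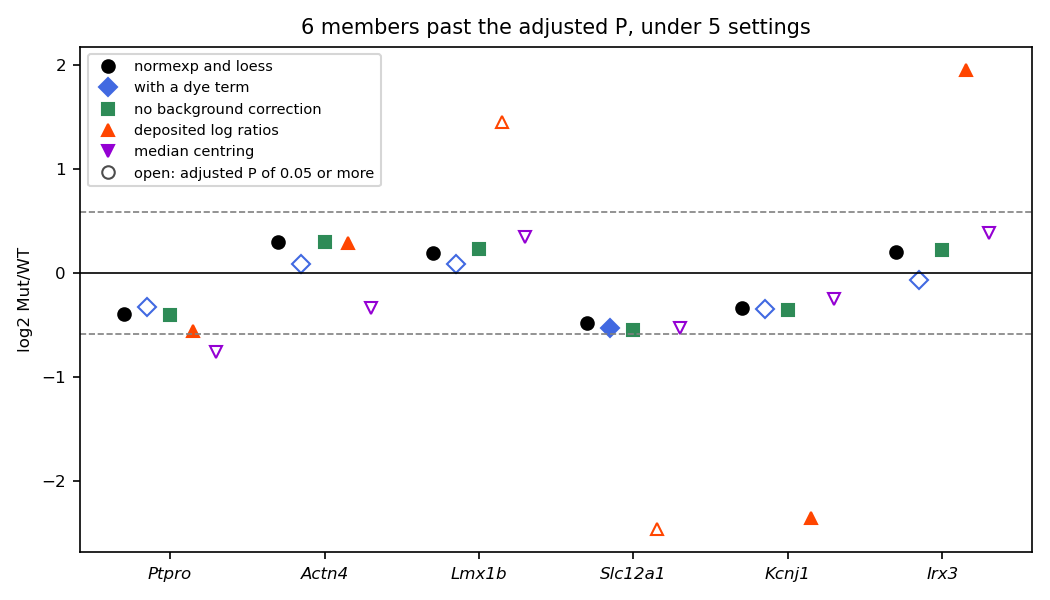
log2 Mut/WT of the 6 genes that passed the adjusted P, under 5 ways of processing: filled symbols have an adjusted P under 0.05, and dashed lines mark 1.5-fold. Ptpro, Slc12a1 and Kcnj1 are below 0 under each of the 5, Irx3 is below 0 with a dye term, Actn4 is at -0.33 under median centring, where the median of genes detected in both channels is -0.50, and the deposited log ratios of Slc12a1, Kcnj1, Lmx1b and Irx3 lie far from the others.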

How the data were processed

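RNA of FACS-isolated GFP+ cells was hybridized to 4 dual-colour Agilent arrays on 1 slide, scanned once. The authors deposited Agilent Feature Extraction 10.7.3.1 output, with linear intensity of signal and background in both channels, not normalized. They also deposited a log10 ratio (red over green) after that program's background subtraction and dye normalization, and a table of the same log10 ratios (180072 of 180072 values identical). GeneSpring values named in the paper were not analysed here.

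Median signals were corrected by normexp (offset 50) and normalized by loess within arrays. Control and outlier spots were dropped, spots of a probe averaged, and ratios turned to Cy3/Cy5. limma 3.58.1 in R 4.3.3 tested arrays 1 to 3 against 0, with Benjamini-Hochberg adjustment over 41166 probes. Calls needed an adjusted P under 0.05 and 1.5-fold, and the fit was tested on simulated data. Channel levels are Aquantile-normalized log2 signals. The log2 fold is on a scale with the offset added, which understates changes of dim genes. Folds for genes dim in *Mut* alone set the higher of the lowest well-above-background signal and the probe's own signal against the bright group. They are no strict bounds. Pools of an array deviated together (r 0.319 to 0.429), and the ratio keeps that pairing. Symbols came from RefSeq (GRCm38.p6) for 22951 probes. No sequences were at hand, so none is printed. Named genes are the members, other segment genes that were called, and markers. Some of the markers named were not called, among them *Eya1*, *Itga8*, *Crym*, *Foxd1*, *Ret*, *Jag1*, *Fgf8* and *Hes5*. The values of 1 called segment gene are not reported here. The members and lists were chosen with earlier results of these data known. Alternatives were the deposited ratios, offset 0, no background correction, median centring, outliers kept, dim probes left out, a dye term, unpaired channels, each array left out, all probes of a gene, the t-test and no fold minimum.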

Additional observations from a re-analysis of the deposited data

How the results depend on the processing

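The segment genes called in *Mut* stayed at 0 higher and 0 lower except with the deposited log ratios (1 higher, *Irx3*; 2 lower, *Slc3a1* and *Kcnj1*) and with no fold minimum (3 and 3). The 2 other segment genes called became 11 with the deposited log ratios, 30 with no fold minimum, 1 with a dye term, 3 with no background correction, 1 to 2 on leaving out an array (1 without array 1), and 0 with offset 0, median centring or the adjusted t-test. These moves were array-wide: over all 41166 probes the calls were 227 higher and 600 lower, 1489 and 1216 with the deposited ratios, 146 and 177 with a dye term, 275 and 743 with no background correction, 5434 and 6753 with no fold minimum, and 0 with offset 0, median centring or the adjusted t-test. With the program's positive and significant flag, 20 genes were detected in *WT* and 18 in *Mut*, in place of 11 and 6. The lower share of these calls was 72.6%, 45.0% with the deposited ratios, where calls in both directions grew in number, and 54.8% with a dye term. Median centring moved the median of genes detected in both channels to -0.50 from -0.01.

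Signs turned mostly for genes near 0, the cause was not tested, and values are log2 *Mut*/*WT*. With a dye term 12 genes turned: *Nphs1* 0.065, *Podxl* 0.014, *Cd2ap* -0.089, *Plce1* -0.087, *Slc34a1* 0.20, *Slc5a2* 0.074, *Slc22a6* -0.027, *Slc22a8* -0.078, *Aqp1* 0.056, *Irx2* -0.12, *Irx3* -0.068 and *Cdh1* -0.039. With median centring, against that shared shift to -0.50, the detected *Cd2ap*, *Actn4* and *Foxc2* read -0.53, -0.33 and -0.48, and the dim *Nphs1* 0.18, *Podxl* 0.078, *Slc34a1* 0.11, *Slc5a2* 0.13, *Slc3a1* 0.14 and *Hnf4a* 0.12. Values that turned without background correction were *Nphs1* 0.012, *Slc22a6* -0.035, *Hnf4a* 0.015 and *Irx2* -0.0077. With offset 0 they were *Slc34a1* 0.010, *Slc22a6* -0.61 and *Irx1* -0.064. With the deposited ratios *Irx1* was 0.00, and *Hnf4a* 0.27 and *Irx2* -0.30 turned. Over all probes of a gene they were *Cd2ap* -0.15, *Hnf4a* 0.0014 and *Irx2* -0.017. Leaving out each array gave *Nphs1* -0.038 to 0.046, *Plce1* -0.051 to 0.11, *Slc34a1* -0.13 to 0.089, *Slc5a2* -0.066 to 0.048, *Slc22a6* -0.077 to 0.20, *Umod* -0.18 to 0.041, *Irx1* -0.034 to 0.046 and *Irx2* -0.018 to 0.025. Outliers kept, dim probes left out (11 genes fitted) and unpaired channels turned no sign. With unpaired channels (no replicate block) *Lmx1b* and *Irx3* lost the adjusted P (0.0604 and 0.0705). With offset 0 or median centring none of the 6 genes past the adjusted P had one under 0.05, and no probe of the array was called. With offset 0 their estimates were larger, at -1.14 for *Slc12a1*, -0.93 for *Kcnj1*, 0.72 for *Irx3*, 0.57 for *Lmx1b*, -0.51 for *Ptpro* and 0.32 for *Actn4*. Signals near background limit 19 of the 25 genes, and with 3 arrays in 1 dye orientation the number of arrays limits all.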
